A study of Mus musculus with 11 samples.

Results

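The neuronal calcium sensor genes encode small EF-hand proteins of the recoverin type, and 9 of them, found by the GENCODE symbol of their Ensembl identifier among 23074 genes counted in testis RNA, are described here. They are the guanylate cyclase activators Guca1a and Guca1b, the visinin-like genes Hpca, Hpcal1, Hpcal4, Ncald and Vsnl1, the frequenin gene Ncs1 and the recoverin gene Rcvrn. Guca1b and Hpcal4 were chosen by their counts in this comparison, which were low in Rfx2-/- testes, and the other 7 were added as their relatives, so the genotype difference of Guca1b and Hpcal4 is given as a description without a test.

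Testis RNA was sequenced from 5 wild type and 6 Rfx2-/- mice at postnatal day 21 (P21), when the first wave of germ cells has reached meiosis and the first spermatids appear. All mice had a mixed C57BL/6, 129/Sv and FVB/N background, and the testes were decapsulated before extraction. In the mutant line, exon 7 of Rfx2 was flanked by loxP sites in 129/Sv-derived ES cells. It was then removed with a universally active ACTB-cre transgene, so exon 7 was deleted in every tissue. The authors describe their mixed background line as still carrying the neomycin cassette. RFX2 is a winged-helix transcription factor that binds the X-box motif in promoters.

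Counts per gene were summed to 26925157 to 29769483 per library in wild type and 22232097 to 27116903 in Rfx2-/- mice. The ranges overlapped, and the wild type mean was higher (p = 0.0130, two-sided exact permutation test of the difference in means). Levels are given as CPM, counts relative to the TMM-scaled size of the library, and on this scale 1 read was worth between 0.0284 and 0.0462 CPM. Rfx2 itself, counted over all exons, ranged from 191 to 472 CPM in wild type and from 282 to 324 CPM in Rfx2-/- testes (log2 fold change -0.10, edgeR adjusted p = 0.714). A count over the whole gene does not check the loss of exon 7. Genes were called by edgeR's quasi-likelihood test where the p adjusted by Benjamini-Hochberg was 0.01 or less. Of 15745 genes tested, 1.94% were called lower and 0.73% higher in Rfx2-/- testes.

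Neuronal calcium sensors bind calcium through EF hands, and most carry an N-terminal myristoyl group that calcium exposes, a switch that moves the protein onto membranes. Recoverin and the guanylate cyclase activating proteins GCAP1 (Guca1a) and GCAP2 (Guca1b) are known from photoreceptors, where they adjust rhodopsin kinase and retinal guanylate cyclase to calcium. Hippocalcin, VILIP-1, neurocalcin delta and NCS-1 are best known from neurons, where they act in membrane traffic, receptor turnover and phosphoinositide synthesis.

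RFX proteins bind the X-box, an inverted repeat whose arms are close to GTTGCC and GGCAAC, and the promoters of the members were searched for it on both strands. RefSeq promoter windows of GRCm38.p6, from 250 bases before to 50 after a start site, were searched for 6 of the 9 members, in 9 windows in all, and not for Guca1b, Ncald and Rcvrn. A single arm, GTTGCC or GGCAAC, stood in 1 of the 9 windows, that of Ncs1, against 12.5% of all 32851 windows. The whole degenerate X-box, with 0 to 3 bases between its arms, stood in none of the 9 windows and in 1.53% of all. The stretches shown are the arm in Ncs1, the single match in the family, and the stretch of Hpcal4 with the fewest mismatches to the X-box, shown because Hpcal4 is a picked gene. Both lie on the plus strand of GRCm38.p6, at chr2:31245869-31245898 for Ncs1 and chr4:123183352-123183381 for Hpcal4, and capitals mark the arm and the stretch compared with the X-box.
Ncs1: agggacgaccgcGGCAACcgagccccggcg
Hpcal4: tcttgtgGTAGCCTAGACTCACaggccacc
The degenerate X-box allows any base at the third position of the first arm and a choice of bases at the fourth, and likewise a choice at the first and the third position of the other arm. The Hpcal4 stretch differs at 2 positions from this motif and at 5 from GTTGCC and GGCAAC themselves, and 64.2% of all windows come as close to the degenerate motif. The Ncs1 window comes within 1 mismatch, as do 11.3% of all windows. These letters describe the windows only and say nothing of binding. The Hpcal4 window, chr4:123183254-123183553, is set by a RefSeq start and lies inside the gene as GENCODE places it, from 123183227. Bases before that GENCODE start were not searched.

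Hpcal4 (ENSMUSG00000046093, chr4:123183227-123194701, plus strand, GRCm38) encodes hippocalcin-like protein 4, also known as VILIP-2. Its counts in wild type mice 1 to 5 were 529, 303, 77, 191 and 74 reads, or 18.6, 10.2, 2.19, 6.69 and 2.33 CPM. In the 6 Rfx2-/- mice the lowest, median and highest levels were 0.0925, 0.239 and 0.356 CPM, from 2 to 8 reads a library. The groups did not overlap, and the lowest wild type level was 6.15 times the highest Rfx2-/- level. Over all tested genes, 5.2% had every Rfx2-/- mouse below every wild type mouse. The means were 8.01 ± 6.81 CPM (SD, n = 5) and 0.229 ± 0.108 CPM (SD, n = 6), and the fitted log2 fold change was -5.09 (SE 0.64, 95% interval -6.50 to -3.69). Pooled over mice, the wild type level was 33.3 times the Rfx2-/- level, with a counting interval of 23.4 to 48.9. This interval covers counting error only, and the 8.52-fold range among wild type mice was wider than the 3.85-fold range among Rfx2-/- mice.

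Guca1b (ENSMUSG00000023979, chr17:47385393-47392967, plus strand) encodes GCAP2. In wild type mice 1 to 5 it had 27, 39, 40, 37 and 64 reads, or 0.951, 1.31, 1.14, 1.30 and 2.01 CPM. Rfx2-/- mouse 6 had 2 reads and each of the other 5 mutants had 1, so the lowest, median and highest levels were 0.0413, 0.0440 and 0.0798 CPM. Every wild type library was above every mutant library, and all 6 mutants were under the floor of 3 reads. The means were 1.34 ± 0.402 CPM (SD, n = 5) and 0.0498 ± 0.0148 CPM (SD, n = 6). Over all mice there were 207 reads in wild type and 7 in Rfx2-/- testes, a ratio of pooled levels of 26.8 with a counting interval of 12.8 to 67.5. The fitted log2 fold change was -4.62. Its SE of 0.28, derived from the F statistic of the fit, is narrower than the counting error allows. With so few reads in the mutants, this fold change depends on the prior count and is no bound. Unlike Hpcal4, Guca1b varied only 2.12-fold among wild type mice, and mouse 1, the highest for Hpcal4, was the lowest for Guca1b.

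Guca1a (ENSMUSG00000023982), which encodes GCAP1, is the direct neighbour of Guca1b. It lies on the minus strand at chr17:47394558-47400584, so the pair point towards each other with 1591 bases between their ends. Guca1a had 0.740, 0.706, 0.880, 0.876 and 1.01 CPM in wild type mice 1 to 5, and its lowest, median and highest levels in Rfx2-/- mice were 0.439, 0.682 and 1.20 CPM. The mutant range enclosed the wild type range. The log2 fold change was -0.23 (SE 0.24, 95% interval -0.77 to 0.31, edgeR adjusted p = 0.478). The interval leaves out a change of the size fitted for Guca1b. Both genes lie 9.38 Mb from Rfx2 on chromosome 17, and a part of 129/Sv DNA linked to the deleted allele was not tested. Of the 123 tested genes within 10 Mb of Rfx2, 4.88% were called lower and 0.813% higher, against 1.91% and 0.73% of the 15621 genes elsewhere.

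**Figure D1:**
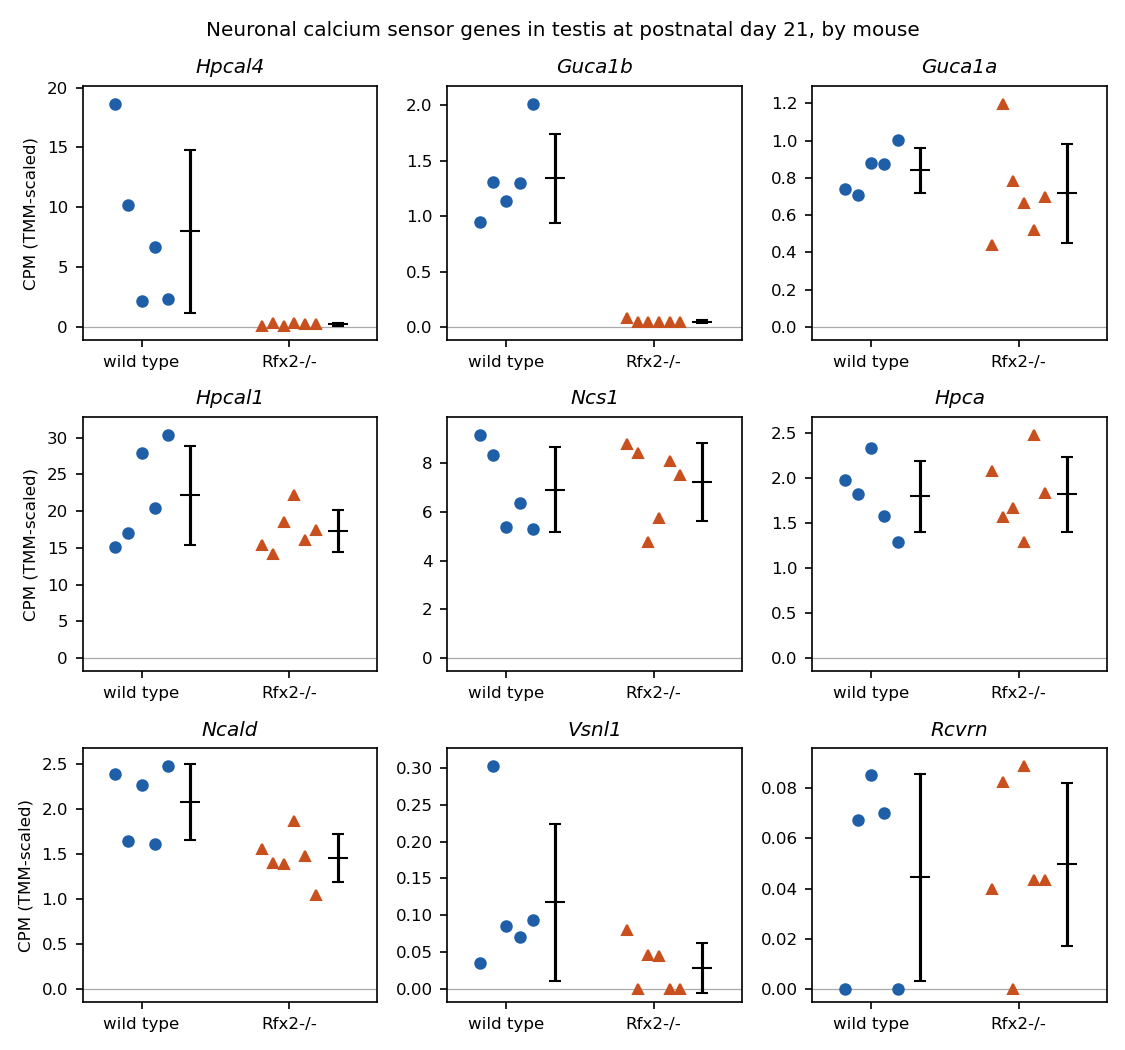
CPM of the 9 genes in each mouse, wild type as circles (5 mice, 1 to 5 from left to right) and Rfx2-/- as triangles (6 mice, 6 to 11), with the mean and SD of each group as a black bar. The axes differ between panels. Hpcal4 and Guca1b, picked for this difference, have no overlap between groups, and the other 7 genes overlap.

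None of the 5 other members that could be tested was called in either direction by edgeR, against the backgrounds of 1.94% and 0.73%. DESeq2 and limma voom called none of them either, while they called 5.72% and 4.33% of all tested genes lower and 7.57% and 2.33% higher. At an unadjusted p of at most 0.05, 1 was lower (Ncald) and 0 were higher, against 23.7% lower and 18.1% higher of all tested genes. Their median log2 fold change was -0.23, beside -0.05 for all tested genes, and 3 of the 5 values were below 0, as were 54.8% of all. No member of the 5 had all Rfx2-/- mice below all wild type mice.

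Hpcal1 (ENSMUSG00000071379, chr12:17690856-17791933) encodes hippocalcin-like protein 1, or VILIP-3, and had the most reads of the family. In wild type mice 1 to 5 it had 15.1, 17.02, 28.0, 20.4 and 30.4 CPM, and in Rfx2-/- mice the lowest, median and highest levels were 14.2, 16.8 and 22.1 CPM. Wild type mice 3 and 5 stood above all mutants, and the other 3 lay within the mutant range. The log2 fold change was -0.36 (SE 0.19, 95% interval -0.78 to 0.06, edgeR adjusted p = 0.171).

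Ncald (ENSMUSG00000051359, chr15:37366175-37792570) encodes neurocalcin delta, which binds clathrin and several membrane guanylate cyclases. It had 2.396, 1.65, 2.27, 1.61 and 2.48 CPM in wild type mice 1 to 5, and 1.04, 1.44 and 1.87 CPM as the lowest, median and highest of the Rfx2-/- mice. Wild type mice 1, 3 and 5 were above all mutants, and mice 2 and 4 were below Rfx2-/- mouse 9 alone. The log2 fold change was -0.52 (SE 0.18, 95% interval -0.91 to -0.12), with an edgeR adjusted p of 0.0651. It did not pass the threshold, while 8.78% of all tested genes were lower at an adjusted p of at most 0.05.

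Hpca (ENSMUSG00000028785, chr4:129111570-129122036) encodes hippocalcin, abundant in hippocampal pyramidal cells. Its wild type levels in mice 1 to 5 were 1.97, 1.82, 2.33, 1.58 and 1.29 CPM, and its lowest, median and highest levels in Rfx2-/- mice were 1.29, 1.75 and 2.48 CPM. The ranges nearly coincided, with a log2 fold change of 0.02 (SE 0.20, 95% interval -0.42 to 0.45, edgeR adjusted p = 0.956) that turned to -0.046 with a marker score as covariate and to -0.15 with unscaled library sizes. The exons of Hpca and Tmem54, on opposite strands, overlap by 57 bases in GENCODE M21. Reads there were left out of the counts if strand was ignored, and strand use was not given. Tmem54 had 29 reads over all mice.

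Ncs1 (ENSMUSG00000062661, chr2:31245823-31295989) encodes neuronal calcium sensor 1, a partner of phosphatidylinositol 4-kinase beta. It had 9.16, 8.34, 5.40, 6.38 and 5.28 CPM in wild type mice 1 to 5 and a lowest, median and highest level of 4.76, 7.81 and 8.78 CPM in Rfx2-/- mice. The 2 ranges were again nearly the same. The log2 fold change was 0.06 (SE 0.20, 95% interval -0.38 to 0.51, edgeR adjusted p = 0.820), and its sign also turned with unscaled library sizes, to -0.087.

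Vsnl1 (ENSMUSG00000054459, chr12:11325242-11436613), the gene of VILIP-1, and Rcvrn (ENSMUSG00000020907, chr11:67695326-67703333), the gene of recoverin, had too few reads to be tested. Vsnl1 had 1, 9, 3, 2 and 3 reads in wild type mice 1 to 5 and 2, 0, 1, 1, 0 and 0 reads in Rfx2-/- mice 6 to 11. Only wild type mouse 2 had more than 3 reads. Without the filter on low counts the edgeR adjusted p of Vsnl1 was 0.120. Rcvrn had 0, 2, 3, 2 and 0 reads in wild type mice and 1, 2, 0, 2, 1 and 1 in Rfx2-/- mice, never above the floor of 3 reads, which equals 0.0852 to 0.139 CPM. At this depth no difference was detectable for Rcvrn (edgeR without the filter, adjusted p = 0.921).

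**Figure D2:**
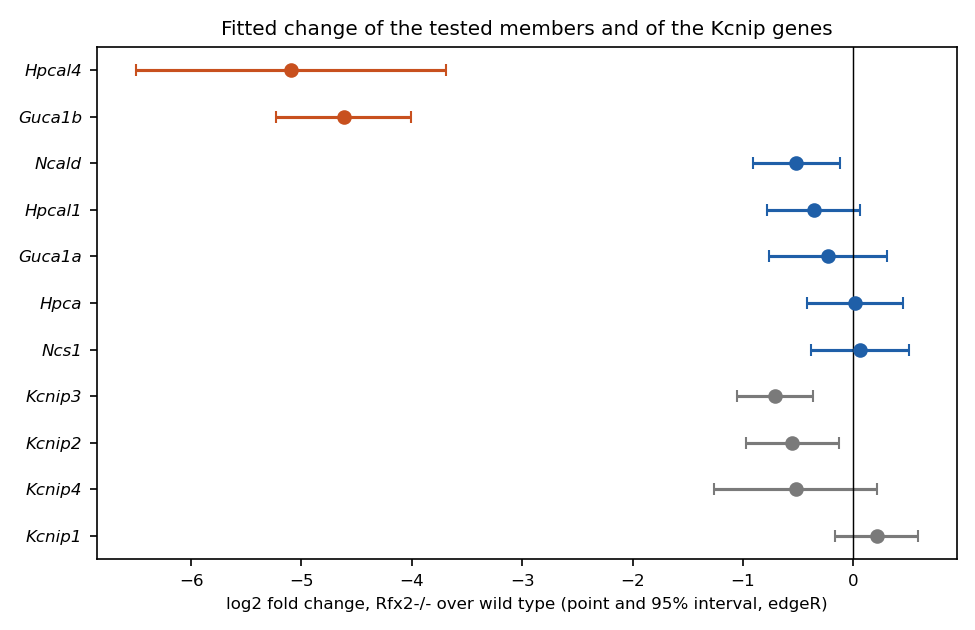
Log2 fold change of Rfx2-/- over wild type (horizontal axis) for the 7 tested members and the 4 Kcnip genes. The 95% intervals were derived from the F statistic of the edgeR fit, and that of Guca1b is narrower than its counting interval. Hpcal4 at -5.09 and Guca1b at -4.62, picked for this difference, are in orange, the other members in blue between -0.52 and 0.06, and the Kcnip genes in grey.

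To compare levels between genes, CPM were divided by the length of the merged exons of each gene. In wild type testis Hpcal1 came first with 13.1 ± 3.97 CPM per kb (SD, n = 5), followed by Hpcal4 with 1.59 ± 1.35, Ncs1 with 1.49 ± 0.378 and Guca1a with 0.964 ± 0.138. Hpca with 0.615 ± 0.135, Guca1b with 0.550 ± 0.165 and Ncald with 0.483 ± 0.0973 CPM per kb came next, and Vsnl1 (0.0601) and Rcvrn (0.0428) last. Neighbours in this order were apart, with no overlap between mice, at 3 steps: below Hpcal1, below Guca1a and below Ncald. All other neighbours overlapped. The steps below Hpcal1 and Ncald were also there with unscaled library sizes and with the length of the longest transcript, but the step below Guca1a was lost with either. In Rfx2-/- testis the order was Hpcal1 (10.2 ± 1.66 CPM per kb), Ncs1 (1.55 ± 0.346), Guca1a (0.822 ± 0.305), Hpca (0.622 ± 0.142) and Ncald (0.338 ± 0.0619), with the remaining 4 genes between 0.0145 and 0.0478 CPM per kb. Hpcal4 stood at rank 2 in wild type and at rank 7 in Rfx2-/- testis, where its level and that of Guca1b overlapped with those of Vsnl1 or Rcvrn. With the length of the longest transcript, Guca1b came to 0.804 and Hpca to 0.973 CPM per kb in wild type, and Hpca, at 0.698 to 1.26, overlapped with Guca1a, at 0.809 to 1.15, and passed it in the mean. With unscaled library sizes, Hpca reached 0.943 and Guca1a started at 0.815 CPM per kb.

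**Figure D3:**
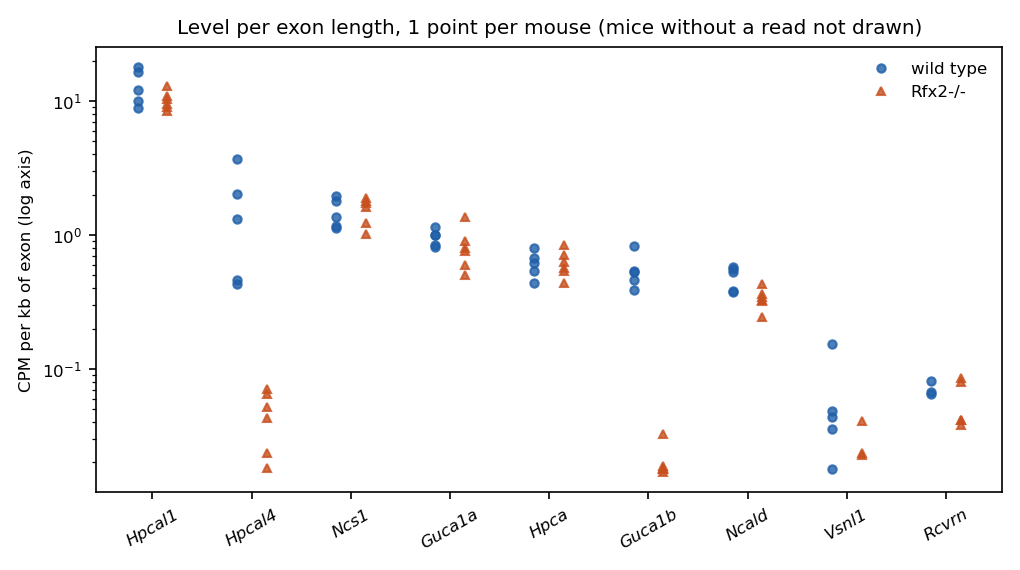
CPM per kb of merged exons for each gene and mouse, on a log axis, wild type as circles and Rfx2-/- as triangles, ordered by the wild type mean. Mice without a read are not drawn. Hpcal1 is above all other genes in both genotypes, and Hpcal4 and Guca1b are at the level of Vsnl1 and Rcvrn in Rfx2-/- testes.

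Mice of 1 genotype differed in a round spermatid score, the mean log2 CPM of 24 marker genes such as Acrv1, Tssk1, Tnp1 and Prm1. The score alone does not show how far spermatogenesis had come. In bulk testis RNA, fewer cells of a type and less RNA per cell cannot be told apart. The score was 5.45, 3.56, 0.87, 1.34 and -0.32 in wild type mice 1 to 5 and ranged from 1.51 to 5.53 in Rfx2-/- mice, without a difference that passed the threshold between genotypes (exact permutation test, adjusted p = 0.478 over 12 marker lists). None of the 24 markers was called by edgeR. At an unadjusted p under 0.05, 1 was lower and 2 were higher, beside 23.7% and 18.1% of all tested genes. DESeq2 and limma voom each called 1 lower, beside 5.72% and 4.33% of all.

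Among wild type mice, Ncs1 had the same order as the score (mice 1, 2, 4, 3 and 5), Hpcal1 the reverse order, and Hpcal4 the order 1, 2, 4, 5 and 3. Within the 6 Rfx2-/- mice, Hpcal1 was at 22.1 CPM in the mouse with the lowest score and at 14.2 CPM in that with the highest (r = -0.922, exact permutation p = 0.0125, adjusted p = 0.0875 over 7 members, and rho = -1, exact permutation p = 0.00278, the smallest possible, adjusted p = 0.0194). Without the 2 mice farthest from the median score r was -0.982. Ncs1 ran the other way (r = 0.866, exact permutation p = 0.025, adjusted p = 0.0875, rho = 0.886, exact permutation p = 0.0333, adjusted p = 0.117, and r = 0.956 without 2 mice). Of all tested genes, 6.68% had an r at or below that of Hpcal1 and 18.8% an r at or above that of Ncs1. Library size had nearly the order of the score in the mutants, from 27116903 counts in mouse 7 to 22232097 in mouse 8. The TMM factors ran nearly the other way, from 0.894 in mouse 7 to 0.994 in mouse 9. A part of depth or scaling in these relations was not tested. Hpcal4, Guca1b, Guca1a, Hpca and Ncald gave adjusted p of at least 0.826 for r. An r over the 4 remaining mice is unsteady, as Guca1a shows, with an r of 0.214 over 6 mice and of -0.961 without the 2.

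Mice of both genotypes with like scores can be set side by side for Hpcal4, as a description of a gene picked for this difference. Rfx2-/- mouse 7 had a score of 5.53 and 0.330 CPM of Hpcal4, while wild type mouse 1, with a score of 5.45, had 18.6 CPM. As the groups did not overlap, any such pair shows a gap for this gene. No cause of the gap was tested. With the score as a covariate the log2 fold change was -5.30 for Hpcal4 and -4.46 for Guca1b. It became -0.50 for Ncald (edgeR adjusted p = 0.0608), -0.16 for Hpcal1 (adjusted p = 0.162), -0.21 for Guca1a, -0.093 for Ncs1 and -0.046 for Hpca, so that none of the 5 was called, against 5.63% of all genes called lower and 4.19% higher in that fit.

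**Figure D4:**
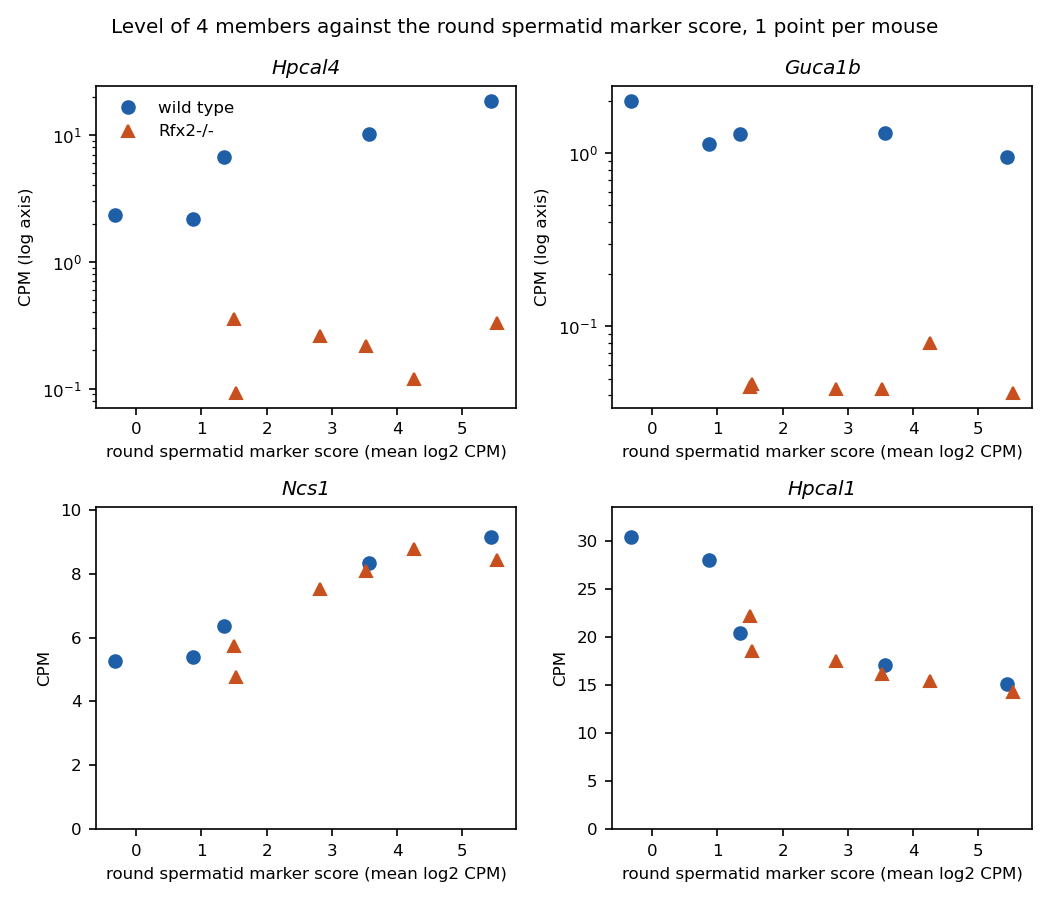
CPM of Hpcal4, Guca1b, Ncs1 and Hpcal1 (vertical axes, log for the upper panels and linear for the lower) against the round spermatid marker score (mean log2 CPM) in each mouse, wild type as circles and Rfx2-/- as triangles. Ncs1 is higher and Hpcal1 lower in mice of either genotype with a high score. All mutants are below all wild type mice for Hpcal4 and Guca1b, picked for this difference. The lowest mutant score is 1.51, and wild type mice 3, 4 and 5 have scores below it.

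Markers of other cell types were followed in the same libraries. RNA of epididymis genes (5 of 5 listed markers in the table, 4 tested, none called by edgeR, 2 lower at an unadjusted p under 0.05 and 1 called lower by DESeq2) summed to 5.00 to 405 CPM in wild type and to 0.0869 to 70.5 CPM in Rfx2-/- libraries. The epididymis score had the same order in wild type mice as the round spermatid score, from 6.02 in mouse 1 to -1.14 in mouse 5, and so nearly the order of Hpcal4. Its part in the Hpcal4 level was not tested. Rfx2-/- mouse 9 and wild type mouse 4 had nearly equal epididymis scores (2.43 and 2.57) and 0.356 and 6.69 CPM of Hpcal4. Any wild type and mutant pair shows a gap for this picked gene. Without wild type mouse 1 the log2 fold change of Hpcal4 was -4.51. Neuron markers (7 of 7 in the table, 4 tested, none called) summed to 98.9 to 180 CPM in wild type and 96.4 to 120 CPM in Rfx2-/- libraries, with scores of 2.02 to 2.16 and 1.85 to 2.12. All 10 spermatogonium, 16 pachytene spermatocyte and 12 Sertoli markers were detected and none was called by edgeR. At an unadjusted p under 0.05, 10 Sertoli and 4 spermatogonium markers were lower and 7 pachytene and 1 spermatogonium markers were higher, where 23.7% of all tested genes were lower and 18.1% higher. DESeq2 and limma voom called 2 and 1 Sertoli markers lower and 2 and 1 pachytene markers higher. Of all tested genes, they called 5.72% and 4.33% lower and 7.57% and 2.33% higher. Over the 12 lists, no adjusted p for a genotype difference in score was under 0.121 (exact permutation tests), and 1 marker, of Leydig cells, was called lower by edgeR (3 Leydig markers by DESeq2 and 2 by limma voom).

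The genes most like Hpcal4 over the 11 mice, by Pearson correlation of log2 CPM, were 1700001C02Rik (r = 0.995), Inpp5d (0.989), 1700012P22Rik (0.987), Esrra (0.987) and Pitpnm1 (0.987). All of them were lower on average in Rfx2-/- testes, from 9.90 to 0.0357 CPM for 1700001C02Rik and from 25.7 to 12.5 CPM for Pitpnm1. The genes most like Guca1b were Tmem256 (0.984), Msl3 (0.976), Serinc3 (0.973), Rpl13a (0.973) and Gpc1 (0.970), whose means were also lower in the mutants, from 17.7 to 10.2 CPM for Tmem256 and from 672 to 542 CPM for Serinc3. Hpcal4 and Guca1b had an r of 0.884 with each other. These values include the gap between genotypes, for which Hpcal4 and Guca1b were picked. The lower mutant means of the genes most like them therefore follow from how those genes were chosen. The values also include the shared depth of each library, and were given no test.

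The Kv channel interacting proteins, encoded by Kcnip1 to Kcnip4, are a further branch of the neuronal calcium sensors that is not among the 9 genes. All 4 were tested and edgeR called none (2 were lower at an unadjusted p under 0.05, as were 23.7% of all tested genes), and their median log2 fold change was -0.54. Kcnip3, also known as calsenilin or DREAM, had 9.05, 10.4, 14.0, 9.78 and 13.2 CPM in wild type mice 1 to 5 and 5.79 to 8.98 CPM in Rfx2-/- mice (log2 fold change -0.71, SE 0.16, edgeR adjusted p = 0.0204). All mutants were below all wild type mice, as for 5.2% of all tested genes. Kcnip3 missed the threshold of 0.01 in edgeR and passed it in DESeq2 (adjusted p = 0.000812) and limma voom (adjusted p = 0.00533). Kcnip2 had a log2 fold change of -0.55 (edgeR adjusted p = 0.0649), Kcnip4 of -0.52 (adjusted p = 0.244) and Kcnip1 of 0.21 (adjusted p = 0.348).

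Of 10 genes for calmodulin, its close relatives and the subunits of calcineurin, 8 were tested and edgeR called none (median log2 fold change 0.31). At an unadjusted p under 0.05, 1 was lower and 4 were higher, beside 23.7% and 18.1% of all tested genes. DESeq2 called 2 higher, beside 7.57% of all, and limma voom none. Of 37 genes for other proteins with EF hands, 35 were in the table and 26 were tested. Of these, 2 were called lower (1.94% of all tested genes) and none higher (0.73%), with a median of 0.06 (-0.05 over all). The 2 called lower were Capsl, a calcyphosine-like gene, with 6.43 ± 2.66 CPM in wild type and 0.428 ± 0.199 CPM in Rfx2-/- testes (log2 fold change -3.89, SE 0.37, edgeR adjusted p = 0.000155), and Efcab10, with 26.0 ± 17.5 and 1.85 ± 0.823 CPM (log2 fold change -3.81, SE 0.52, edgeR adjusted p = 0.00137). In both, the mutants lay wholly below wild type, at 0.231 to 0.784 CPM against 3.49 to 9.72 CPM for Capsl and at 1.02 to 3.30 CPM against 8.12 to 49.3 CPM for Efcab10. Such a lack of overlap was found for 5.2% of all tested genes.

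Among 29 known partners of the family (guanylate cyclases, receptor kinases, phosphatidylinositol 4-kinases, Ric8 proteins, inositol trisphosphate receptors and others), 24 were tested. With a median of -0.12 (-0.05 over all tested genes), none was called lower (1.94% of all) and 1 was called higher (0.73% of all). This was Pi4ka, a phosphatidylinositol 4-kinase, with 262 ± 19.4 CPM in wild type and 326 ± 4.48 CPM in Rfx2-/- testes (log2 fold change 0.31, SE 0.06, edgeR adjusted p = 0.00926). With unscaled library sizes its log2 fold change was 0.15 and its adjusted p 0.0699, so it was no longer called. In that fit 2.76% of all tested genes were called lower and 0.616% higher, and the median of all tested genes moved from -0.05 to -0.22. Of 20 rod phototransduction genes, 13 were tested and none was called by edgeR, DESeq2 or limma voom (median -0.02). At an unadjusted p under 0.05 in edgeR, 2 were lower and 2 higher, beside 23.7% and 18.1% of all tested genes. Gngt1, which encodes the rod transducin gamma subunit, was at 0 reads in all 11 mice.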

How the data were processed

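Decapsulated testis RNA of 5 wild type and 6 Rfx2-/- mice at P21 was analysed from the deposited raw counts, which the authors made from single TruSeq reads with STAR 2.4 and featureCounts 1.4.6 (versions as in the submitters' processing notes) on merged exons of protein coding isoforms of GRCm38, leaving out reads at several places or on exons of 2 genes. Strand use was not given in the sources used here. Of 23074 Ensembl identifiers, 22293 matched a GENCODE M21 symbol. Counts were tested with edgeR 4.0.16 in R 4.3.3 (filterByExpr, TMM, glmQLFit and glmQLFTest, Benjamini-Hochberg). Scores were means of log2 CPM with a prior count of 2, and permutation tests used SciPy 1.17.1. The tests were checked on simulated data. Alternatives used DESeq2 1.42.0, limma 3.58.1, other filters, scalings and a covariate, and left out each mouse. The members and lists were chosen with earlier results of these data known. Named were all members, list genes called (at most 6 a list), all 4 Kcnip genes, the 5 genes most like Hpcal4 and Guca1b, and neighbours. Exon lengths came from GENCODE M21, a later annotation than the one counted.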

Additional observations from a re-analysis of the deposited data

Results flagged for a closer look

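In 42 groups of mice checked for a sample that stands apart from the rest, 2 were found, and chance alone would mark about 1 in 20. In Rfx2-/- testes, Guca1b had 0.0798 CPM in mouse 6 and 0.0413 to 0.0462 CPM in the other mutants, which is 2 reads against 1. In wild type testes, Vsnl1 had 0.303 CPM in mouse 2 and 0.0352 to 0.0943 CPM in the other mice, which is 9 reads against 1 to 3.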

How the results depend on the processing

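Over the alternatives, the log2 fold change was -4.80 to -4.20 for Guca1b and -5.32 to -4.51 for Hpcal4, which is a description, since both were picked for this difference in the same mice. The number of members past the threshold, 2, counts only this picked pair, and it was 1 with a filter on a mean count of at least 50, which leaves out Guca1b. No alternative called any of the other 5, and Ncald ranged from -0.69 to -0.33 with adjusted p from 0.0411 to 0.180. Hpca, at 0.02, was -0.046 with the spermatid score as covariate, -0.15 with unscaled library sizes and between -0.092 and 0.14 with a mouse left out. Ncs1, at 0.06, was -0.039 with limma voom, -0.093 with the covariate, -0.087 with unscaled library sizes and between -0.0054 and 0.19 with a mouse left out. The partner called higher was lost (0 called) with unscaled library sizes. DESeq2 and limma voom, added for the lists after the data were seen, each called 1 Kcnip gene lower (Kcnip3) where edgeR called 0. DESeq2 called 2 calmodulin and calcineurin genes higher (0 in edgeR), 3 other EF-hand genes lower and 2 higher (2 and 0 in edgeR) and 2 partners higher (1 in edgeR), and limma voom called 1 EF-hand gene higher. Of all tested genes, DESeq2 called 5.72% lower and 7.57% higher, and limma voom 4.33% and 2.33%. The correlation of Hpcal1 in the mutants was -0.963 (exact permutation, adjusted p = 0.00972) with pachytene markers in place of spermatid markers. Both scores put the 6 mutants in the same order, so this is no separate check. The share of all tested genes with such an r was not computed for pachytene markers. The causes were not tested. No paired analysis was possible because the genotypes share no replicate number. At this depth, Vsnl1, Rcvrn and the mutant levels of Guca1b rest on a few reads.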
